A study of Mus musculus with 65 samples.

Results

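The comparison concerns neural stem cells of 4 old mice kept in stem cell medium with doxycycline and harvested at 6 h or at 18 h. Its members are 8 of the 65 RNA libraries of the series, 4 labelled 6 h and 4 labelled 18 h, and the animal number in each column name pairs the 2 times. The series follows partial reprogramming, age and differentiation in primary cells from the subventricular zone of adult brain. All cells used here carry the iOSKM genotype, named for a doxycycline-inducible set of Oct4, Sox2, Klf4 and Myc, and come from mice of 25 months, 2 female and 2 male. Both groups received doxycycline at 2 µg per ml in Neurobasal-A with B27, EGF and bFGF, on plates coated with poly-D-lysine and laminin. The labels do not name the promoter that drives the activator, and each animal gave 1 library per time. The labels do not say from which moment the 6 h and 18 h are counted, and no untreated library of 6 h in stem cell medium is used here, so time in culture and time on doxycycline cannot be told apart. Where named, context comes from old libraries of the same 4 animals: 48 h with doxycycline, 18 h without it, and 6 h and 18 h with doxycycline in medium without EGF and bFGF.

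Neural stem cells of the subventricular zone divide in culture under EGF and bFGF, which act through receptor tyrosine kinases and the ERK pathway. Cells balance sterol in opposite ways: SREBP raises cholesterol synthesis and uptake when sterol is scarce, and liver X receptors raise its export when it is plentiful. The circadian clock of such cells is a loop in which BMAL1 (encoded by Arntl) and CLOCK drive the Per, Cry and Nr1d genes, whose products repress that drive in turn.

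Libraries held 73398231 to 96724446 counts. Levels are in CPM, the counts of a gene relative to the library total, scaled by the TMM method, and differences are log2 fold changes of 18 h over 6 h with their standard errors (SE), from a fit that compares the times within each animal. Values after ± are SD with n = 4 unless marked SE. A gene is called at an adjusted p under 0.05 (edgeR quasi-likelihood test, Benjamini-Hochberg). Time took 98.7% of the first principal component, which held 75.8% of the variance, and animal took 99.7% of the second, which held 13.6%. All 12 neural stem and progenitor markers averaged at least 1 CPM. Of 10 microglia markers 7 were under 1 CPM at both times, and the complement genes C1qa and C1qb were at 0 in all 8 libraries. In bulk RNA a change in the number of cells of a kind and a change in RNA per cell cannot be told apart.

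Of the 4 factors of the cassette, Sox2, Klf4 and Myc were lower at 18 h than at 6 h, and Pou5f1 was under 1 CPM in all 8 libraries. Pou5f1, which encodes the pluripotency factor Oct4, lay at 0.473, 0.592, 0.399 and 0.519 CPM at 6 h and 0.205, 0.471, 0.455 and 0.456 CPM at 18 h. The 2 times overlapped, and the difference did not pass (18 h to 6 h ratio 0.80, exact two-sided permutation p = 0.257). The permutation tests set 4 against 4 libraries and did not use the pairing by animal. These levels rest on 16 to 58 counts per library. Untreated libraries at 18 h held 0.157 ± 0.0578 CPM of Pou5f1, with 7 to 20 counts. Sox2, which neural stem cells also express from their own gene, lay at 346, 306, 357 and 335 CPM at 6 h and 253, 250.4, 264 and 242 CPM at 18 h. Klf4, a zinc finger factor, lay at 19.7, 16.3, 20.6 and 16.1 CPM at 6 h and 8.62, 8.29, 7.91 and 9.12 CPM at 18 h. Both were lower at 18 h in every animal, at 0.752 and 0.467 times the 6 h mean (exact permutation p = 0.0286 each, the smallest that 4 against 4 libraries can give, 0.0357 adjusted over 5 tests). Myc, the growth regulator, was at 0.817 times and the transactivator M2rtTA at 1.28 times the 6 h mean, with the same p-values. Untreated libraries at 18 h averaged 255 CPM of Sox2, 7.999 CPM of Klf4, 173 CPM of Myc and 224 CPM of M2rtTA. The table does not separate transgene from endogenous reads of the 4 factors. The 2A linker sequences P2A, T2A and E2A reached at most 4 counts in any of the 8 libraries.

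Of 16678 genes tested, 5652 were higher at 18 h (33.9%) and 5677 lower (34%), together 67.9%. With a fold of 2 or more added, 1037 were higher (6.22%) and 796 lower (4.77%), and the median absolute log2 fold change was 0.29. Libraries of the 2 times did not overlap for 4615 genes higher (27.7%) and 4785 lower (28.7%) at 18 h. Within animals, 36.4% of genes were higher at 18 h in all 4 and 36.4% lower. The shares of all genes called higher and lower are the background for the counts of each gene group. Levels are relative within each library, so a change in RNA per cell shared by all genes would not be seen.

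The 12 largest rises among called genes of at least 5 CPM without overlap between times included a cholesterol exporter, clock genes and transporters. Abca1 (ENSMUSG00000015243, chr4:53030787-53159895, mm10), which exports cholesterol from the cell, lay at 6.61, 2.9, 3.61 and 3.54 CPM at 6 h and 65.8, 62.2, 72.8 and 57 CPM at 18 h. It rose 16-fold (log2 fold change 4.00 ± 0.24 SE, adjusted p = 3.76e-04). Slc16a3 (ENSMUSG00000025161, chr11:120948480-120960868), a lactate exporter, lay at 1.13, 1.02, 1.06 and 0.914 CPM at 6 h and 14.2, 4.37, 12.7 and 27.6 CPM at 18 h (log2 fold change 3.65 ± 0.51 SE, adjusted p = 0.00709). The 6 h libraries lay close together while the 18 h ones differed widely, animal 4 being highest and animal 2 lowest. St6galnac5, a sialyltransferase, rose from 1.09 ± 0.164 to 13.1 ± 3.43 CPM. Angptl2, a secreted angiopoietin-like protein, rose from 1.17 ± 0.289 to 12.5 ± 3.31 CPM, and the secreted protein gene Crispld2 rose from 3.38 ± 0.6 to 36.1 ± 11.1 CPM. Cbs, which makes cystathionine from homocysteine, rose from 3.98 ± 0.632 to 24.3 ± 2.76 CPM. The bicarbonate cotransporter gene Slc4a4 started higher. It lay at 45.8, 44.3, 35.5 and 48.3 CPM at 6 h and 249, 293, 255 and 263 CPM at 18 h, 6.13-fold higher at 18 h. The clock genes Per3, Nr1d2 and Dbp, described with their group, also belonged to these 12. Adora1, an adenosine receptor gene, and Mybph rose by log2 fold changes of 2.38 and 2.63. Annotated exons of this pair overlap on opposite strands, as do those of Dbp with Sphk2 and of Nefl with Nefm. The sources used here do not say whether counting used strand, so reads of such pairs may not be separated. Among other genes named for this comparison, exons of St6galnac5, Srebf1, Npc1, Atf5, Wdr12, Pfkp, Nr1d1, Fen1, Tk1, Ccne2, Lrig1, Tap1, Tagln, Itga7 and Ngef also overlap a gene on the opposite strand. The same holds for G6pdx, whose exons overlap those of Ikbkg.

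The 12 largest falls by the same rule included the secreted factor gene Inhba and the transcription factor genes Nfatc2 and Tead4. Inhba (ENSMUSG00000041324, chr13:16011851-16031621), the activin A subunit, lay at 15.2, 6.02, 15.2 and 10.7 CPM at 6 h and 0.334, 0.224, 0.304 and 0.228 CPM at 18 h. It fell 42.4-fold (log2 fold change -5.41 ± 0.12 SE, adjusted p = 6.03e-12). Scg2, a secretogranin, lay at 83.1, 57, 79.4 and 69.5 CPM at 6 h and 4.59, 3.54, 4.31 and 4.11 CPM at 18 h. Vgf (ENSMUSG00000037428, chr5:137026392-137033351), a growth-factor-induced neuropeptide precursor, lay at 357, 156, 324 and 211 CPM at 6 h and 31.7, 12.6, 32.5 and 17.2 CPM at 18 h (log2 fold change -3.51 ± 0.05 SE, adjusted p = 1.60e-11). At both times animal 2 was lowest and animal 4 next, and the fall within each animal was of similar size. The guidance factor gene Sema3e fell from 14.8 ± 2.22 to 0.909 ± 0.195 CPM and the matrix protein gene Ccn3 from 18.3 ± 4.09 to 1.51 ± 0.417 CPM. Transcription factor genes were Nfatc2, which fell from 23.8 ± 5.18 to 1.13 ± 0.364 CPM, and Tead4, which fell from 13.8 ± 3.55 to 0.917 ± 0.124 CPM. The peptidase gene Ecel1, the potassium channel gene Kcnk3, the matrix gene Tgfbi and the neurofilament gene Nefl fell by log2 fold changes of -3.75, -3.73, -3.63 and -3.50. At 18 h without doxycycline Inhba, Scg2 and Vgf averaged 0.224, 4.94 and 21.8 CPM.

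**Figure D1:**
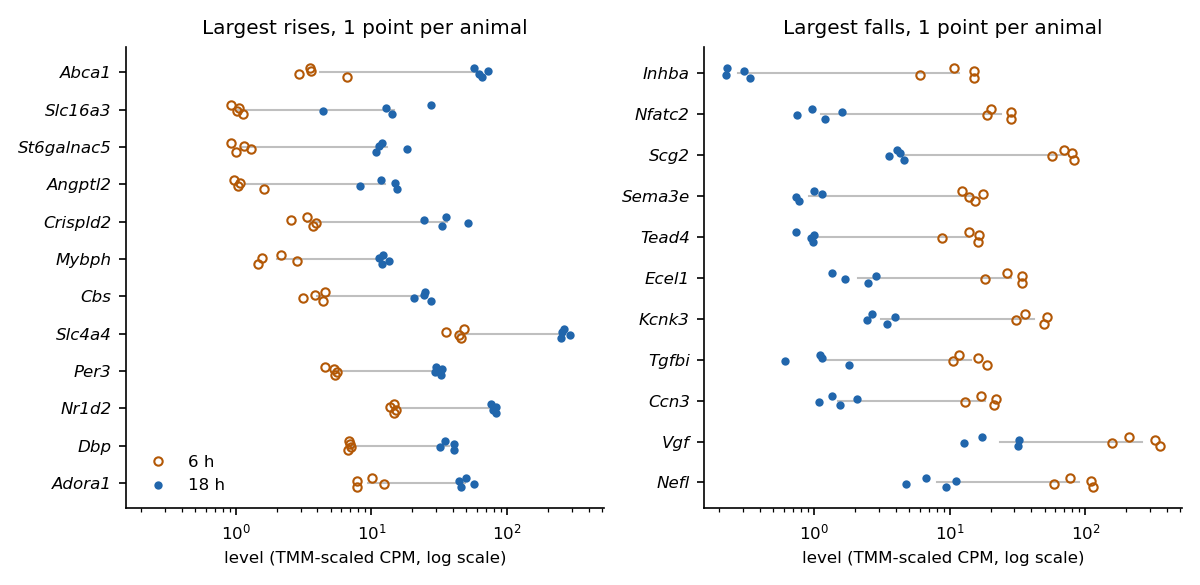
Levels in TMM-scaled CPM (log axis) of the 12 genes with the largest rise and 11 of the 12 with the largest fall. Open points are the 4 libraries at 6 h, filled points the 4 at 18 h, and grey lines join the means. The genes were chosen for times that do not overlap. Abca1 goes from 4.17 to 64.4 CPM on average while Inhba goes from 11.8 to 0.272 CPM.

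Cholesterol synthesis fell as a block. Of 20 tested genes of the pathway 19 were called lower, where 34% of all genes were, and 0 higher, with a median log2 fold change of -1.47 against 0.006 over all genes tested. The median lay between -1.51 and -1.39 in the 4 animals. Lss (ENSMUSG00000033105, chr10:76531588-76557138), lanosterol synthase, lay at 605, 567, 593 and 581 CPM at 6 h and 132, 123, 137 and 145 CPM at 18 h (log2 fold change -2.13 ± 0.04 SE, adjusted p = 7.47e-13). The 18 h libraries held less than any 6 h library by a wide margin and differed little among themselves. Mvd and Idi1, which act on mevalonate intermediates, fell from 194 ± 6.9 to 45.2 ± 3.42 CPM and from 287 ± 7.1 to 74.3 ± 2.88 CPM. Msmo1, a sterol oxidase, fell from 673 ± 21.7 to 179 ± 10.5 CPM. The exception was Tm7sf2, a sterol reductase gene, at 72.7 and 69.6 CPM (adjusted p = 0.128), whose exons overlap those of Vps51 on the same strand.

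Of 10 genes that sense and import sterol 6 fell, where 34% of all genes did, and 3 rose, a share close to the 33.9% of all genes. The SREBP retention gene Insig1 lay at 525, 542, 502 and 504 CPM at 6 h and 184, 202, 191 and 214 CPM at 18 h, a 2.62-fold fall without overlap. In addition the sterol carrier gene Stard4 fell from 297 ± 14.1 to 122 ± 6.41 CPM. Srebf1 went the other way, from 168 ± 12.5 to 306 ± 12.9 CPM, as did the lysosomal cholesterol transporter gene Npc1, from 70.5 to 127 CPM. Of 9 liver X receptor targets and sterol export genes 5 rose and 1 fell. Beside Abca1 the exporter gene Abcg1 rose from 0.12 ± 0.0155 to 2.26 ± 0.482 CPM, and Abcg4 and Smpdl3a rose by log2 fold changes of 0.60 and 0.82. Apoe, a lipid carrier, fell from 28.5 ± 14.9 to 12.3 ± 3.75 CPM (log2 fold change -1.12, adjusted p = 0.00696), with overlapping times, and without the animal block its adjusted p was 0.0525. Fatty acid synthesis fell in 9 of 12 genes, with 1 higher. Acss2 and Acsl3, which activate acetate and long-chain fatty acids, fell from 160.1 ± 11.5 to 64.6 ± 3.12 CPM and from 274 ± 9.28 to 116 ± 5.63 CPM. Acly, which makes cytosolic acetyl-CoA, and Elovl6, an elongase, fell by 1.15 and 0.96 on the log2 scale. Exons of Acsl3 overlap those of Utp14b on the same strand (log2 fold change of Utp14b -1.15), and those of Acss2 overlap Ggt7 and Gss on the opposite strand, so these falls are uncertain.

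Sterol genes often carry a sterol response element near their start. The letters TCACNCCAC, searched on both strands from 250 bases before to 50 after the start in the RefSeq promoter table (GRCm38.p6), occurred in 1 of the 15 pathway genes with an entry, and in 1.44% of all 27025 genes in that table. The match was in Hmgcs1, the synthase at the head of the pathway, which fell from 3508 ± 68 to 1275 ± 40.4 CPM. It is shown in capitals because it is the single such match among these genes, at chr13:119690184-119690252 (+ strand).
Hmgcs1: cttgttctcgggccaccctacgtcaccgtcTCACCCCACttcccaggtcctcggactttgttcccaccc

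The integrated stress response, a programme in which ATF4 raises amino acid supply genes, was lower at 18 h. Of 28 tested features 23 fell and 2 rose, with a median of -0.54. Atf4 itself lay at 454, 441, 486 and 442 CPM at 6 h and 202, 203, 207 and 203 CPM at 18 h (log2 fold change -1.16 ± 0.03 SE, adjusted p = 1.56e-11). The 18 h values differed little among animals. Atf3, a stress-induced factor, lay at 9.79, 8.77, 9.43 and 9.51 CPM at 6 h and 1.82, 1.92, 2.03 and 2.01 CPM at 18 h, and Chac1, a glutathione-degrading enzyme, lay at 28.6, 30.4, 34.5 and 26.4 CPM at 6 h and 9.01, 11.1, 11 and 9.38 CPM at 18 h. Neither gene overlapped between times. Trib3, a pseudokinase induced by ATF4, fell from 18.6 ± 2.28 to 8.37 ± 1.48 CPM. The 2 that rose were Atf5, from 146 to 184 CPM, and Ddit4, from 67.9 to 95.9 CPM. At 48 h Atf4, Atf3 and Chac1 averaged 140.0, 0.863 and 4.17 CPM.

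The CEBP-ATF letters TGATGNAA occurred on either strand in the promoters of 8 of 25 members with an entry (32%), against 4.51% of all genes in the table. The lines give 4 of them, genes of the list that fell, with the match in capitals. The windows are chr1:191183406-191183473 (- strand), chr2:119351019-119351086 (+ strand), chr6:7693210-7693262 (- strand) and chr3:50443623-50443709 (- strand) of GRCm38.p6.
Atf3: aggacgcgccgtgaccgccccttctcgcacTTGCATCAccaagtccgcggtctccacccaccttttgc
Chac1: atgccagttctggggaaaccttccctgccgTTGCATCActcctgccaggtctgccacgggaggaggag
Asns: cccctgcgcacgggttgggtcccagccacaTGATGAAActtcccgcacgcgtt
Slc7a11: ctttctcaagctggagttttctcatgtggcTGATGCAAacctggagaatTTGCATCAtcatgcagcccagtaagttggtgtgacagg
In Slc7a11 2 matches lie on opposite strands. Asns, asparagine synthetase, fell from 251 ± 19.9 to 136 ± 4.03 CPM, and Slc7a11, the cystine transporter, fell from 123 ± 5.12 to 98.1 ± 5.54 CPM.

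Genes of ribosome assembly and of tRNA charging fell. All 27 tested ribosome biogenesis genes and MYC targets were called lower, with a median of -0.74. Rrp12, a ribosomal RNA processing factor, lay at 84.7, 72.6, 83.8 and 83.8 CPM at 6 h and 32.7, 31.3, 33.2 and 35.7 CPM at 18 h (log2 fold change -1.29 ± 0.04 SE, adjusted p = 2.98e-11). Srm, spermidine synthase, fell from 208 ± 8.31 to 107 ± 2.59 CPM, Wdr12, a ribosome assembly factor, from 80.5 ± 2.91 to 41.4 ± 2.93 CPM, and Polr1b, a subunit of RNA polymerase I, from 77 ± 5.11 to 39.7 ± 2.2 CPM. CACGTG, an E-box that MYC can bind, was in the promoters of 3 of 21 members (14.3%) against 8.09% of all genes. Of 20 aminoacyl-tRNA synthetases 18 fell and 1 rose, among them Gars, which fell from 402 ± 16.6 to 249.7 ± 5.95 CPM, and Nars, which fell from 427 ± 22.7 to 272 ± 6.62 CPM. Tars and Iars fell by 0.63 and 0.62 on the log2 scale, and Qars rose from 39.2 to 58.5 CPM. Cytosolic ribosomal protein genes had small differences: 11 of 26 rose and 1 fell, with a median of 0.07, and Rplp1 had the largest of these rises at 0.28. In the MYC network 5 of 12 rose and 6 fell, where 33.9% and 34% of all genes did. Mxd4, a MAX partner that opposes MYC, lay at 71.4, 84.8, 73.6 and 72.8 CPM at 6 h and 219.9, 239, 235 and 193 CPM at 18 h and was higher in every animal (log2 fold change 1.55 ± 0.04 SE, adjusted p = 2.05e-10), and Mxd1 rose by a log2 fold change of 0.56. Max, the partner of MYC, fell by 0.31 on the log2 scale.

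Heat shock genes fell, and other stress and protein turnover genes split. Of 14 heat shock genes 11 fell and 0 rose, the constitutive chaperone gene Hspa8 from 3064 ± 96.9 to 1811 ± 88.7 CPM and Hsph1 from 218 ± 10.3 to 142 ± 7.06 CPM. In the unfolded protein response 8 of 18 rose and 9 fell, where 33.9% and 34% of all genes did. Xbp1, a transcription factor of that response, fell from 73.9 to 51.4 CPM. Calr, a chaperone of the endoplasmic reticulum, rose from 674 to 953 CPM. Of 23 proteasome genes 12 fell and 4 rose, with a median of -0.08. Lysosome and autophagy genes rose in 12 of 24 and fell in 8, a share close to the 34% of all genes that fell. Of 17 Nrf2 antioxidant genes 6 rose, close to the 33.9% of all genes, and 8 fell, and Srxn1, which repairs oxidised peroxiredoxins, fell from 139.9 ± 23.7 to 42 ± 4.96 CPM. Among 19 p53 targets 5 rose and 12 fell. Ccng1 and Btg2 rose from 335 ± 25.7 to 560.1 ± 31.2 CPM and from 24.1 ± 2.47 to 41.7 ± 2.46 CPM, while Cdkn1a, the p21 inhibitor, fell from 518 ± 45.3 to 370.1 ± 30.2 CPM.

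Glycolysis genes mostly rose, unevenly by animal. Of 25 glycolysis and hypoxia genes 17 rose and 4 fell, with a median of 0.50. Pfkl, liver-type phosphofructokinase, averaged 38.8 ± 3.44 CPM at 6 h and 140.1 ± 36.6 CPM at 18 h (log2 fold change 1.82 ± 0.14 SE, adjusted p = 6.19e-04). Bnip3, a mitophagy receptor induced by low oxygen, lay at 9.03, 9.997, 11.1 and 11.3 CPM at 6 h and 51.5, 23.4, 45.1 and 79.3 CPM at 18 h (log2 fold change 2.15 ± 0.34 SE, adjusted p = 0.0109). Without animal 3 its adjusted p was 0.0579. Pdk1, which limits pyruvate entry into mitochondria, lay at 11.8, 10.7, 12.6 and 13.5 CPM at 6 h and 38.3, 26.5, 36.3 and 69.2 CPM at 18 h. In these 3 genes and in Slc16a3 animal 4 was highest and animal 2 lowest at 18 h, while the 6 h libraries lay close together. The platelet-type phosphofructokinase gene Pfkp fell from 63.8 to 33 CPM. Nuclear respiratory chain genes rose in 13 and fell in 0 of 24, with a median of 0.08. The share of counts on mitochondrial genes went from 0.916% to 1.45% (exact permutation p = 0.0286, 0.0381 adjusted over 8 tests), and its part in these results was not tested.

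Clock genes changed in both directions and by large folds. Of 19 tested members 13 rose and 5 fell. Arntl (ENSMUSG00000055116, chr7:113207465-113314126), which encodes BMAL1, lay at 90.9, 81, 91.1 and 89.6 CPM at 6 h and 11.8, 13.7, 11 and 13.9 CPM at 18 h (log2 fold change -2.81 ± 0.08 SE, adjusted p = 1.75e-07). Its partners Npas2 and Clock fell from 8.81 ± 1.12 to 0.982 ± 0.183 CPM and from 116 ± 9.13 to 79.5 ± 1.2 CPM. Nfil3, a repressor of D-box genes, fell from 35.6 ± 3.68 to 4.56 ± 0.599 CPM, and the repressor gene Cry1 fell from 62.1 ± 4.18 to 22.9 ± 1.19 CPM. Nr1d2 (ENSMUSG00000021775, chr14:18204054-18239127), a REV-ERB repressor of Arntl, lay at 14.8, 15.2, 13.7 and 14.6 CPM at 6 h and 82.5, 78.9, 82.6 and 75.8 CPM at 18 h (log2 fold change 2.46 ± 0.04 SE, adjusted p = 7.47e-13). Dbp, a D-box activator, lay at 6.75, 7.04, 6.92 and 6.82 CPM at 6 h and 40.9, 32.3, 40.5 and 34.9 CPM at 18 h, and Per3 lay at 5.39, 5.53, 5.25 and 4.57 CPM at 6 h and 32.5, 29.4, 33.4 and 29.96 CPM at 18 h. These genes were among the 12 largest rises, which were chosen for times that do not overlap. Nr1d1, the other REV-ERB, rose from 19.5 ± 0.657 to 74.7 ± 6.82 CPM, Tef, an activator of the D-box family, from 35.3 ± 1.25 to 117 ± 4.6 CPM, and Per2 from 14 ± 0.231 to 33 ± 1.18 CPM. Per1 rose less, from 29.7 ± 2.15 to 35.1 ± 2.35 CPM. The 18 h libraries without doxycycline averaged 14.1 CPM of Arntl and 77.4 CPM of Nr1d2. At 48 h with doxycycline the averages were 26.5 and 39.1 CPM.

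The E-box CACGTG, which reads the same on both strands and is the site of BMAL1 and CLOCK, was in the promoters of 5 of 16 clock genes with an entry (31.2%), against 8.09% of all genes. The lines show 3 of these genes: Ciart and Tef, which rose, and Cry1, which fell. The windows are chr3:95882237-95882374 (- strand), chr15:81802516-81802581 (+ strand) and chr10:85185079-85185144 (- strand) of GRCm38.p6, with each E-box in capitals. A further Tef window with this E-box, at chr15:81811246-81811311 (+ strand), is not shown.
Ciart: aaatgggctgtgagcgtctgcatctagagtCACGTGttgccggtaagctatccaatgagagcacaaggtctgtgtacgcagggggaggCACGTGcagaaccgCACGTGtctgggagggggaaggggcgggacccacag
Tef: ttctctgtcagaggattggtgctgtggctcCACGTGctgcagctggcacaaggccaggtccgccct
Cry1: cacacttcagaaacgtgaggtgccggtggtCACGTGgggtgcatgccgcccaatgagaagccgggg
Ciart, a clock repressor with 3 E-boxes in the window, rose from 2.93 ± 0.21 to 8.35 ± 0.907 CPM. Cry1, with 1, was among those that fell.

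**Figure D2:**
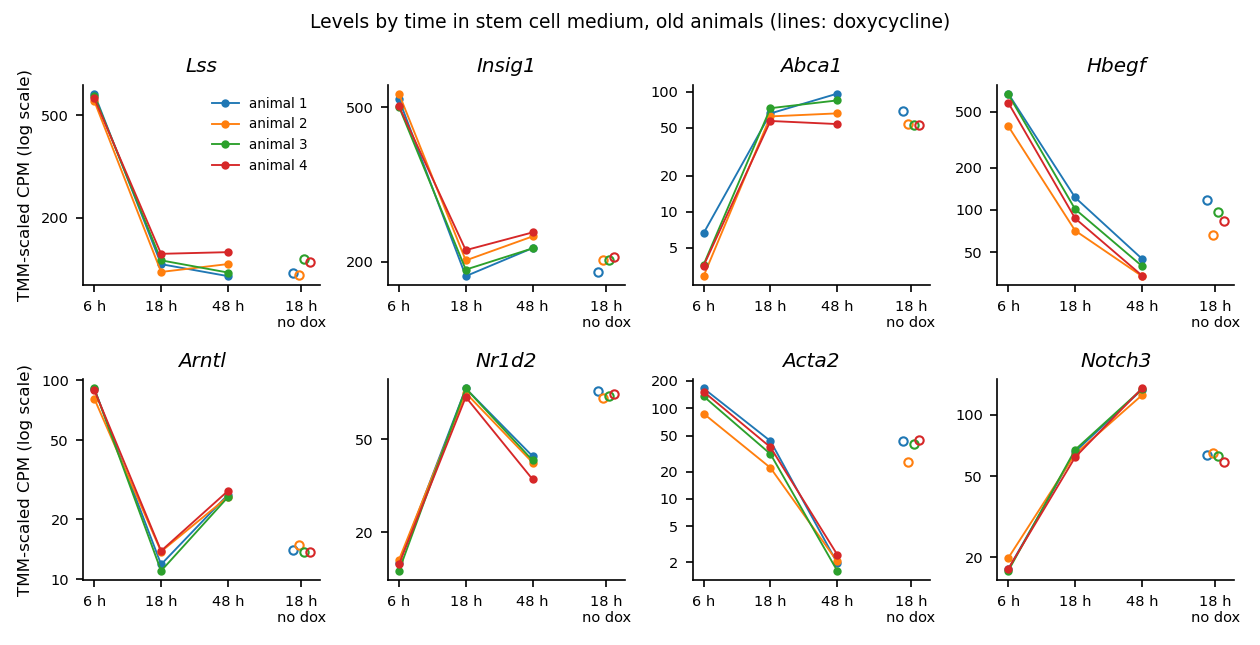
Levels in TMM-scaled CPM (log axes) of 8 genes in old stem cell medium libraries at 6, 18 and 48 h with doxycycline (lines, 1 per animal) and at 18 h without it (open points). Arntl falls from 88.2 to 12.6 CPM and stands at 26.5 CPM at 48 h, Nr1d2 goes from 14.6 to 80.0 and 39.1 CPM, and the open points lie near the 18 h values of the same gene.

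DNA replication genes rose, and mitosis genes fell by less when compared within animals. Of 32 DNA replication genes 31 rose (33.9% of all genes did) and 0 fell, with a median of 0.53. Tk1, thymidine kinase, lay at 24, 31.5, 20.3 and 27.2 CPM at 6 h and 46.5, 60.7, 47 and 59.3 CPM at 18 h (log2 fold change 1.06 ± 0.05 SE, adjusted p = 2.19e-09), and Cdc6, a replication licensing factor, lay at 15.3, 17.3, 12.2 and 18.7 CPM at 6 h and 27.6, 33.8, 28.4 and 31.5 CPM at 18 h. Both rose in every animal without overlap. Fen1, a flap endonuclease, and Gins3, of the replicative helicase, rose by 0.70 and 0.70 on the log2 scale. Among 21 G1 genes 14 rose and 6 fell. Ccne1, cyclin E1, lay at 10.5, 14.4, 10.3 and 12.6 CPM at 6 h and 35.7, 41.9, 34.8 and 37.3 CPM at 18 h, and Ccnd2, cyclin D2, rose from 928 ± 51.2 to 2058 ± 128 CPM. The kinase gene Cdk6 rose from 7.64 ± 0.504 to 15.5 ± 3.59 CPM, and Ccne2, cyclin E2, rose from 27.5 ± 2.93 to 47.8 ± 5.82 CPM. Mitosis genes went the other way: 21 of 32 fell and 1 rose, with a median of -0.19. Without the animal block 6 of the 32 were called lower. Anln, the cytokinesis scaffold anillin, fell from 111 ± 10.5 to 66.9 ± 10.6 CPM. Its times did not overlap, whereas those of Ccnb1, cyclin B1, did, at 101, 139, 97.1 and 111 CPM at 6 h and 68.2, 93.8, 68.6 and 99.6 CPM at 18 h. In 2 of the 32 mitosis genes all 18 h libraries lay below all 6 h libraries, and in 0 above. Over all genes tested these shares were 28.7% and 27.7%. Mki67, the proliferation antigen gene, was the 1 that rose (log2 fold change 0.43 ± 0.12 SE, adjusted p = 0.0387). Its adjusted p ran from 0.0595 to 0.128 without animal 2, 3 or 4. At 48 h Mki67 averaged 639 CPM and Ccnb1 153 CPM.

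Ligand genes of the EGF receptor fell while the receptor gene rose. Of 15 EGF and FGF receptors and ligands 8 fell and 3 rose. For this and the next groups the shares of all genes were 34% lower and 33.9% higher. Hbegf (ENSMUSG00000024486, chr18:36504927-36515805), a membrane-bound EGF receptor ligand, lay at 674, 396, 667 and 581 CPM at 6 h and 123, 71.2, 101 and 87.1 CPM at 18 h (log2 fold change -2.60 ± 0.05 SE, adjusted p = 4.09e-10). Tgfa and Areg, further ligands of that receptor, fell from 43.6 ± 9.39 to 16.7 ± 0.656 CPM and from 11 ± 1.46 to 3.22 ± 0.289 CPM. Its receptor gene Egfr rose from 215 ± 21.6 to 338 ± 20.2 CPM, and Fgf1 rose from 39.96 ± 8.82 to 93.5 ± 5.95 CPM. Genes of ERK feedback split: 10 of 19 rose and 8 fell. Dusp5 and Dusp14, phosphatase genes, fell from 57.2 ± 12.9 to 13.8 ± 1.09 CPM and from 19.1 ± 4.15 to 7.07 ± 1.56 CPM, Phlda1 fell from 67.5 ± 10.9 to 34.7 ± 5.23 CPM, and Lrig1, a brake on EGF receptor, rose from 246 ± 17.4 to 484 ± 17.9 CPM. Of 20 immediate early genes 11 fell and 6 rose. The AP-1 genes Fosl1 and Jun fell from 56.6 ± 13.7 to 11.8 ± 2.37 CPM and from 522 ± 89.5 to 222 ± 37.9 CPM, and Fosl2 fell from 90.2 ± 17.9 to 21 ± 1.23 CPM. Annotated exons of Fosl1 overlap those of Ccdc85b on the opposite strand. Ier3 rose from 3.44 ± 0.492 to 6.98 ± 0.755 CPM.

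Notch genes rose in 12 and fell in 2 of 16, with a median of 0.61. Over all genes 33.9% rose and 34% fell, the background for each count in this paragraph. Notch3, a receptor gene, lay at 17.5, 19.8, 17.1 and 17.5 CPM at 6 h and 65.9, 64.2, 67.4 and 61.9 CPM at 18 h (log2 fold change 1.85 ± 0.05 SE, adjusted p = 1.05e-11). Nrarp, a target that limits the signal, lay at 5.03, 7.5, 5.11 and 7.4 CPM at 6 h and 26.2, 31, 31.6 and 35.5 CPM at 18 h. Both were separated between times. Hes1, an effector, rose from 24.4 ± 1.31 to 41.9 ± 1.99 CPM, and Lfng, which modifies Notch, rose from 172 ± 6.35 to 283 ± 20.6 CPM. Of the ligand genes Dll1 rose from 28.1 to 36.5 CPM and Jag2 fell from 3.35 to 0.959 CPM. Of 16 TGF-beta and activin genes 10 fell and 2 rose, with Tgif1, a repressor, falling from 57.4 ± 8.37 to 21.1 ± 3.09 CPM. Of 16 BMP and Id genes 5 rose and 8 fell. The BMP antagonist gene Bambi fell from 11.6 to 6.15 CPM and Bmp7 rose from 34.4 to 59 CPM. Of 14 Wnt targets 7 rose and 5 fell, with Nkd1 and Axin2, feedback inhibitors, rising from 7.01 to 17.7 CPM and from 26.4 to 51.4 CPM. Of 15 YAP and TEAD genes 6 rose and 8 fell, and Ccn1, a matrix protein gene under YAP, fell from 45.3 ± 5.05 to 9.24 ± 0.922 CPM. Inflammatory NF-kB targets fell in 7 and rose in 2 of 14, with the prostaglandin synthase gene Ptgs2 falling from 9.28 to 2.08 CPM. Interferon response genes rose in 7 and fell in 3 of 16, among them Tap1, which rose from 5.93 to 11.7 CPM, and Stat2, which fell from 25.4 to 13.4 CPM.

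Contractile genes fell, and matrix and adhesion genes split. Beside each count of this paragraph stands the share of all genes, 33.9% higher and 34% lower. Of 18 contractile actin and tropomyosin genes 14 fell and 0 rose, with a median of -0.68. Acta2 (ENSMUSG00000035783, chr19:34241090-34255590), smooth muscle actin, lay at 166, 87.3, 135 and 152 CPM at 6 h and 43.5, 22, 31.3 and 37.2 CPM at 18 h (log2 fold change -2.02 ± 0.03 SE, adjusted p = 7.47e-13). Tagln, an actin cross-linker, fell from 37.2 ± 11.4 to 7.2 ± 1.68 CPM, Cnn2, a calponin, from 54.6 ± 9.28 to 12.6 ± 1.75 CPM, and Actn1, alpha-actinin, from 126 ± 24.5 to 34.2 ± 6.67 CPM. Acta2 and Tagln also stand in the pericyte and fibroblast marker list, whose summed level was 112 to 217 CPM at 6 h and 29.1 to 55.6 CPM at 18 h. Of its 11 markers 8 were under 1 CPM, and the defining marker Pdgfrb averaged 0.173 CPM at 6 h and 0.0739 CPM at 18 h. The part of such cells in these falls was not tested. Of 18 integrin and adhesion genes 7 rose and 8 fell. Itga5 and Itga7, receptors for fibronectin and laminin, fell from 110.4 ± 19.5 to 45.1 ± 1.65 CPM and from 299.6 ± 65.7 to 107 ± 27.3 CPM, Itga3 fell from 15.8 ± 4.45 to 6.03 ± 2.21 CPM, and Itgb5 rose from 25.3 ± 2.16 to 47.1 ± 2.73 CPM. Of 32 matrix genes 15 rose and 11 fell. Col6a3, a collagen VI chain, lay at 122, 38.3, 88.1 and 61.6 CPM at 6 h and 10.8, 4.7, 12 and 6.67 CPM at 18 h, and Timp1, a protease inhibitor, fell from 43.2 ± 8.5 to 11 ± 2.32 CPM. Col4a6, a basement membrane collagen, rose from 8.15 ± 2.41 to 33.9 ± 10.1 CPM. Timp3 rose from 22.7 ± 0.293 to 99.5 ± 7.37 CPM, but its exons overlap those of Syn3 on the opposite strand, which was also higher (log2 fold change 2.15). Of 16 S100a, annexin and galectin genes 9 fell and 5 rose. Anxa2 and S100a10, which form 1 complex, fell from 493 ± 95.6 to 149.8 ± 26.5 CPM and from 518 ± 48.4 to 194 ± 27.8 CPM, and Anxa1 and Lgals3 fell from 22 to 4.74 CPM and from 25 to 9.4 CPM.

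Most glial lineage genes rose, and markers of other cells moved in both directions. The counts below stand against 33.9% of all genes that rose and 34% that fell. Of 21 quiescent stem cell and astrocyte genes 16 rose and 4 fell, with a median of 0.63. Slc1a2 and Slc1a3, glutamate transporters, rose from 39.7 ± 2.55 to 108 ± 13.8 CPM and from 485 ± 44 to 889 ± 22.4 CPM, and Nfib, a gliogenic factor, rose from 259 ± 19.8 to 526 ± 14.6 CPM. Gfap, the astrocyte filament gene, went from 0.647 ± 0.259 to 1.41 ± 0.327 CPM. Other members of that list went the other way without overlap between times: Gja1 from 137 to 88.1 CPM and Id4 from 4.29 to 2.12 CPM. Of 15 oligodendrocyte lineage genes 11 rose and 2 fell. Olig1 and Olig2, its transcription factors, lay at 643, 696, 660.3 and 732 CPM at 6 h and 1665, 1505, 1733 and 1564 CPM at 18 h and at 502, 563, 532 and 562 CPM at 6 h and 925, 874, 926 and 857 CPM at 18 h, respectively. Both sets were separated between times. Bcas1, a gene of early oligodendrocytes, rose from 18.5 ± 9.09 to 47.9 ± 18.2 CPM, animal 2 being highest at both times, and Tnr, a matrix protein, rose from 20.6 to 32.2 CPM. Cspg4, also of the oligodendrocyte list, averaged less at 18 h, 92.2 against 120 CPM at 6 h, with overlapping times. Of 12 neural stem and progenitor markers 8 rose and 3 fell: Fabp7, a radial glia lipid carrier, rose from 756 ± 40.5 to 1131 ± 59.9 CPM, and the intermediate filament gene Vim fell from 4885 ± 319 to 2445 ± 287 CPM. Among 14 neuroblast genes 4 rose and 6 fell, with Dcx rising from 3.56 to 8.57 CPM and Elavl4 falling from 18 to 13.4 CPM. Of 8 mature neuron markers 4 fell and 2 rose. With 1 untested marker the sum was 231 CPM at 6 h and 108 CPM at 18 h, of which the neurofilament gene Nefm, which fell, made up 117 and 15.7 CPM. Camk2a, a neuronal kinase gene, rose from 5.91 to 20.5 CPM, and the synaptic vesicle gene Syt1 rose from 1.21 to 3.61 CPM. Ependymal markers summed to 18.8 and 30.6 CPM, led by Foxj1, a cilia factor that rose from 8.21 to 19.9 CPM. Endothelial markers summed to 10.04 and 15.3 CPM, and microglia markers to 30.6 and 29.1 CPM. Of 5 tested endothelial markers 3 rose, where 33.9% of all genes did, and 0 fell. Flt1 and Kdr averaged 7.39 and 1.66 CPM at 6 h and 11.2 and 2.45 CPM at 18 h. Cldn5, a tight junction gene of endothelial cells, was near 0. The part of these cell types in the results was not tested. Metallothionein and metal transport genes rose in 5 and fell in 6 of 12, and Tfrc, the transferrin receptor gene, fell from 257 to 172 CPM.

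**Figure D3:**
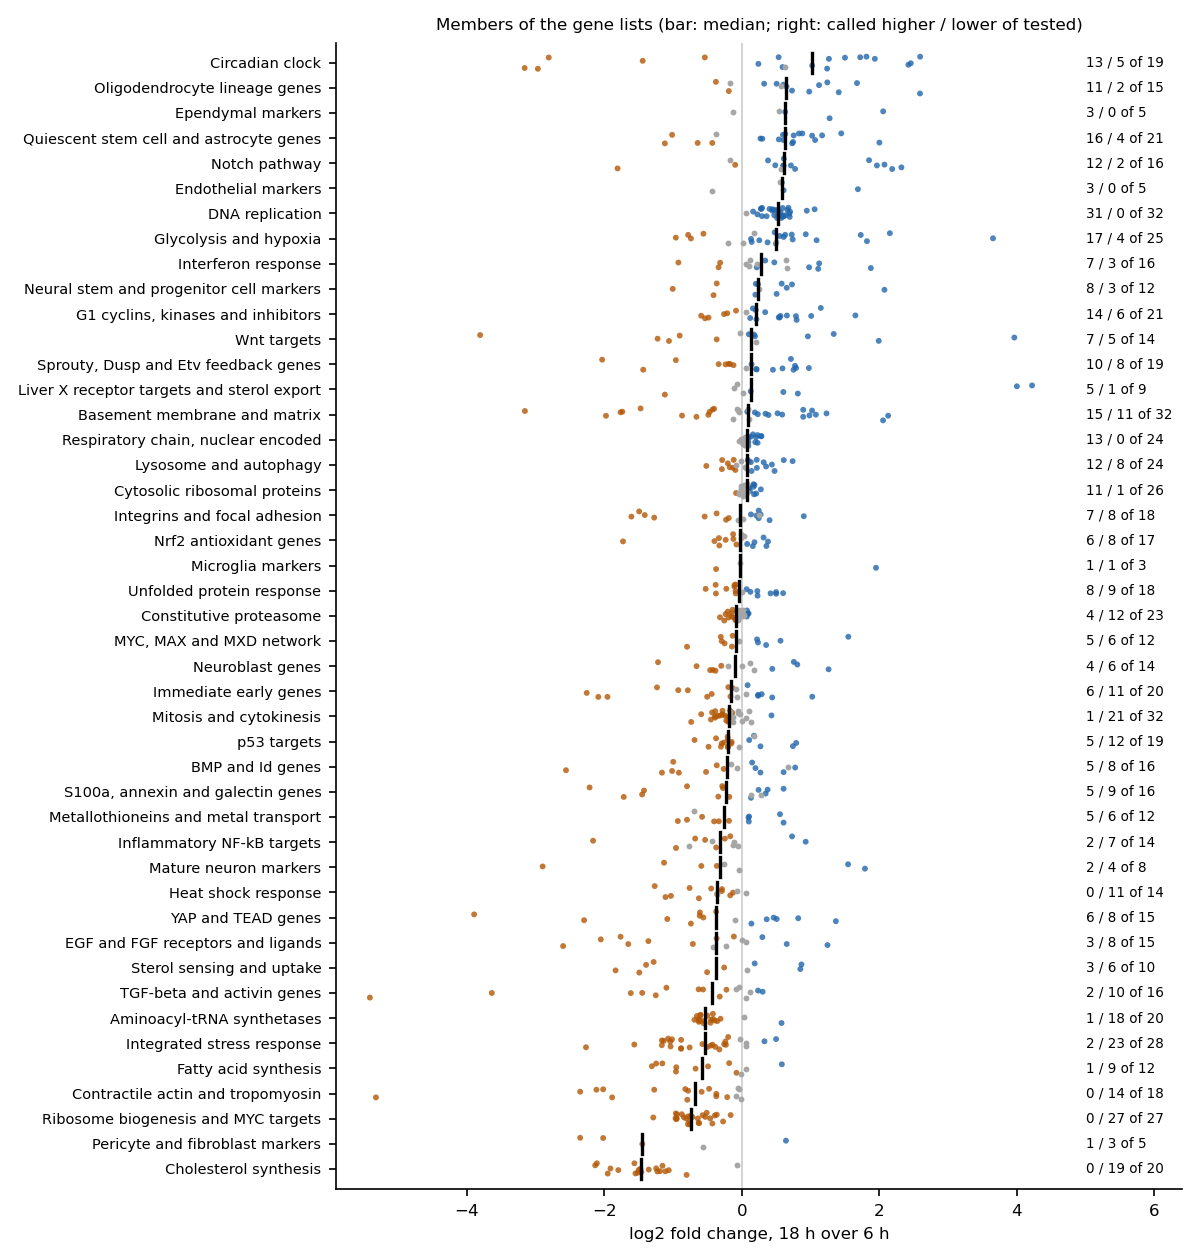
Log2 fold change of 18 h over 6 h for each tested member of 45 lists, ordered by median (black bar). Blue points were called higher, brown points lower and grey points neither, and the numbers at right are called higher and lower of those tested. Cholesterol synthesis lies lowest with a median of -1.47 and the circadian clock highest with 1.02.

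The step from 6 h to 18 h was compared with that in medium without EGF and bFGF, in the same 4 animals with doxycycline. Cells were switched to that medium 18 h after plating, and its 6 h and 18 h are called by the labels' time names. The 2 steps may therefore start from different moments after plating. Of 17709 genes tested, the step was more positive in stem cell medium for 5936 (33.5%) and more negative for 5941 (33.5%), 67.1% in all. In differentiation medium 6207 genes were higher at 18 h (35%) and 5560 lower (31.4%). Of 7925 genes called in both steps 3422 moved in the same direction and 4503 in opposite directions.

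Mitosis and DNA replication had the largest median interactions of the lists. All 32 mitosis genes had a step more positive in stem cell medium, with median steps of -0.20 there and -5.53 in differentiation medium. All 32 replication genes did too, at 0.53 and -2.33. Aurkb, a mitotic kinase, went from 43.1 ± 8.47 to 47.1 ± 8.35 CPM in stem cell medium and from 61.7 ± 6.03 to 0.658 ± 0.169 CPM in differentiation medium, an interaction of 6.68 ± 0.19 SE (adjusted p = 6.60e-12). Esco2, a cohesin acetyltransferase, and Kif14, a kinesin of cytokinesis, had interactions of 6.73 ± 0.16 SE (adjusted p = 1.23e-16) and 6.63 ± 0.20 SE (adjusted p = 1.67e-12), Pclaf and Melk of 6.52 and 6.47. Angptl2 moved in opposite directions, from 1.17 ± 0.289 to 12.5 ± 3.31 CPM in stem cell medium and from 6.76 ± 1.56 to 0.648 ± 0.201 CPM in differentiation medium. Ribosome biogenesis genes fell in stem cell medium, with a median of -0.74, and had a median of 0.27 in the other, where 19 of 27 rose. For 17 of 20 cholesterol genes the step was more negative in stem cell medium, at medians of -1.47 and -0.51. Glycolysis and hypoxia genes were more positive in stem cell medium in 19 of 26, at medians of 0.49 and -0.70.

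The genes with the most negative interactions fell in stem cell medium and rose in the other. Nfatc2 went from 23.8 ± 5.18 to 1.13 ± 0.364 CPM in stem cell medium and from 0.726 ± 0.159 to 1.48 ± 0.497 CPM in differentiation medium, with an interaction of -5.44 ± 0.23 SE (adjusted p = 7.43e-13). Scg2 and Ngef, a guanine nucleotide exchange factor, had interactions of -5.31 ± 0.22 SE (adjusted p = 9.29e-10) and -4.96 ± 0.17 SE (adjusted p = 1.73e-13). Pla2g7, a platelet-activating factor hydrolase, went from 10.04 ± 1.88 to 4.01 ± 1.42 CPM in stem cell medium and from 24.5 ± 2.81 to 374 ± 19.6 CPM in differentiation medium. Il33, an alarmin, had an interaction of -5.17 ± 0.19 SE (adjusted p = 3.73e-14). Apoe went from 28.5 ± 14.9 to 12.3 ± 3.75 CPM in stem cell medium and from 348 ± 45.9 to 4289 ± 336 CPM in differentiation medium, with an interaction of -4.79 ± 0.37 SE (adjusted p = 1.27e-06). Clock genes were called with a more positive step in stem cell medium in 11 of 19 and more negative in 6. Arntl went from 88.2 ± 4.81 to 12.6 ± 1.42 CPM in stem cell medium and from 20.6 ± 2.6 to 30.4 ± 1.16 CPM in differentiation medium.

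**Figure D4:**
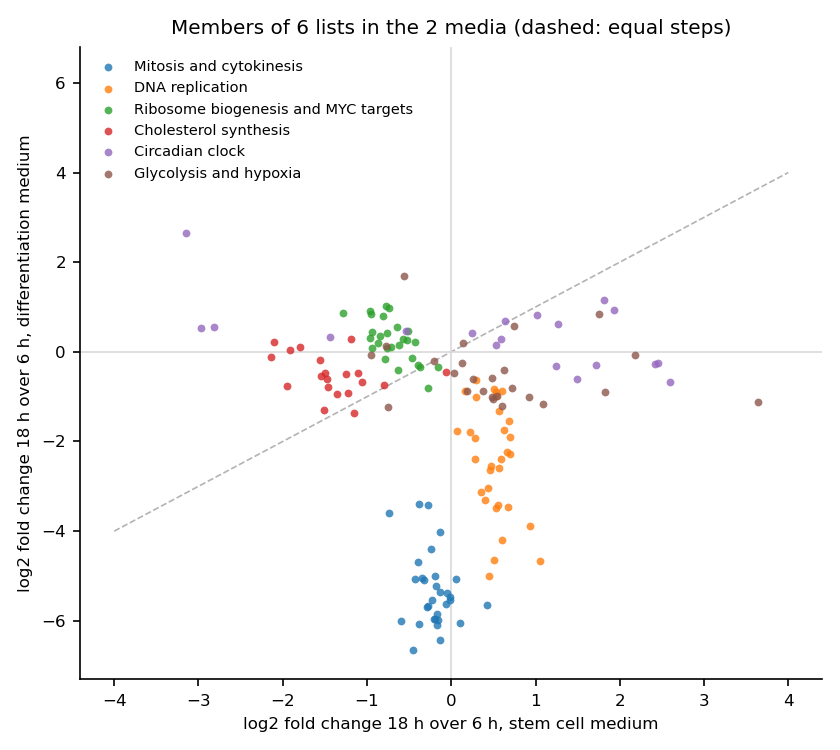
Log2 fold change of 18 h over 6 h in stem cell medium (x axis) and differentiation medium (y axis) for members of 6 lists, 1 point per gene, with the dashed line marking equal steps. Mitosis and DNA replication genes lie far below the line, at medians of -5.53 and -2.33 in differentiation medium.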

How the data were processed

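Poly(A) RNA from neural stem cells was sequenced by the authors as paired 150-base reads from a stranded kit, per the labels' protocols. The submitters' processing notes name build mm10 and, with no role or order given, STAR 2.7.10b, Trim Galore 0.6.6, DESeq2 1.40.1, SAMtools and also Subread. Counting settings are not given in the sources used here. The deposited count table holds whole-number counts of 31057 features, 31011 of them named from GENCODE M21, 42 unmatched and 4 transgene sequences. Counts of 2 (75644) outnumber counts of 1 (19963), so both mates of a pair may have been counted. The authors also deposited variance-stabilised log2 values, used as an alternative.

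The 8 libraries were fitted with edgeR 4.0.16 (R 4.3.3): TMM, filterByExpr at 10 counts, robust quasi-likelihood F-tests, Benjamini-Hochberg adjustment, with the animal as block. SE is the absolute log2 fold change over the square root of F, and 3 residual degrees of freedom hold the animals' spread. The medium interaction used 16 libraries and the same model. Single measures had two-sided exact permutation tests, which did not use the pairing by animal. Depth of 73398231 to 96724446 counts leaves genes under about 1 CPM least precise. Columns carry the animal number: libraries of 1 animal deviated together by 0.67 to 0.74 over 13584 genes (median -0.41 between animals), and 8 of 8 lay closest to their own. Alternatives were other size factors, filters, tests (DESeq2 1.42.0, limma 3.58.1), halved counts and leaving out each animal. The fit was tested on simulated data.

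Members and lists were chosen with earlier results of these data known. Named genes are up to 12 per direction with the largest fold among called genes of at least 5 CPM without overlap or a Gm, Rik or mt- name, up to 4 called members per list of at least 5 CPM, the 4 factors, M2rtTA, and 6 per sign of the interaction. Other members were named for their role, with values known. Some genes that the rule names are not reported here. Of 813 list symbols 4 had no feature. Promoter sequences are RefSeq's (GRCm38.p6), matched by symbol.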

Additional observations from a re-analysis of the deposited data

Results flagged for a closer look

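In each time the 4 animals were checked for a library far from the other 3, and 16 of 384 groups held one. Chance flags about 1 in 20 groups. Animal 2 at 6 h accounted for 8. There it was lowest for Vim (4408 CPM against 5011 to 5068 in the others), Rrp12 (72.6 against 83.8 to 84.7) and Arntl (81.0 against 89.6 to 91.1). It was highest there for Bcas1 (32.0 against 12.3 to 15.1), G6pdx (106 against 94.6 to 96.2), Ccng1 (373 against 321 to 323), Mxd4 (84.8 against 71.4 to 73.6) and Notch3 (19.8 against 17.1 to 17.5). At 18 h animal 2 was highest for St6galnac5 (18.2 against 10.9 to 11.9) and Bcas1 (75.1 against 36.9 to 39.9).

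Animal 4 at 18 h was highest for Tars (151 against 142 to 143 CPM). Animal 1 at 6 h was highest for Dnajb9 (18.3 against 16.2 to 16.5) and lowest for Psmd14 (161 against 172 to 173), and at 18 h lowest for Pou5f1 (0.205 against 0.455 to 0.471). Animal 3 at 6 h was highest for Nfil3 (41.2 against 33.6 to 34.0). Features overlapping ribosomal RNA took 3.61% of the counts of animal 1 at 6 h against 0.400% to 0.615% in the others and 1.59% to 1.90% at 18 h.

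The step from 6 h to 18 h differed between media for 11877 genes by the edgeR interaction test. The 12 named ones had interactions of 6.77 for Angptl2, 6.73 for Esco2, 6.68 for Aurkb, 6.63 for Kif14, 6.52 for Pclaf, 6.47 for Melk, -5.44 for Nfatc2, -5.31 for Scg2, -5.26 for Pla2g7, -5.17 for Il33, -4.96 for Ngef and -4.79 for Apoe.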

How the results depend on the processing

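The numbers of genes called higher and lower stayed within 1.5 times of the main ones under every alternative run. Without the pairing by animal (no replicate block) 5099 were higher and 5123 lower, 10222 in all, and the interaction called 11564. With a fold of 2 or more, a filter at a mean of 1 CPM left 600 higher and 462 lower, and limma on the deposited variance-stabilised values gave 169 and 239. The filter removes genes of low counts, and the stabilised values shrink differences at low counts. The part of either in these numbers was not tested. Without 1 animal, 3 libraries against 3 cannot pass the exact test: ratios ran from 0.732 to 0.761 for Sox2, 0.438 to 0.5 for Klf4, 0.806 to 0.831 for Myc, 1.26 to 1.31 for M2rtTA, 1.49 to 1.67 for the mitochondrial share, and for summed markers 0.939 to 0.965 (microglia), 1.49 to 1.55 (endothelial), 0.244 to 0.251 (pericyte and fibroblast), 1.57 to 1.68 (ependymal) and 0.437 to 0.495 (mature neuron). The ratio of total counts, near 1, was 1.03 without animal 2, 1.02 without animal 3 and 0.97 without animal 4. Of 2243 values for named genes under alternatives 2237 kept direction and call, the 6 others being those given for Mki67, Bnip3 and Apoe, with Mki67 at an adjusted p of 0.0781 without the filter. Of 1104 list counts 35 moved by over 1.5 times, 5 of them without the block, among these the mitosis genes called lower (6 in place of 21). Leaving out 1 animal moved 19 of the 35, in 9 lists: members called higher of the proteasome (4 to 0, 1 and 1 without animals 1, 3 and 4), mitosis (1 to 2, 2, 0 and 0), the integrated stress response (2 to 4 without animal 2), NF-kB targets (2 to 1, 0 and 1 without animals 1, 3 and 4) and metal transport (5 to 3 without animal 3 or 4), and members called lower of the liver X receptor targets (1 to 2 without animal 1), the unfolded protein response (9 to 5 without animal 3), ribosomal proteins (1 to 0 without animal 2, 3 or 4) and Notch (2 to 1 without animal 4). Of 552 list medians 44 moved by more than the spread between animals, 19 of them with limma on the variance-stabilised values and 11, in 7 lists, without 1 animal. Genes near 1 CPM or below, such as Pou5f1 and Abcg1, rest on few counts.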
